A study of Mus musculus with 16 samples.

Results

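The strain by AngII interaction asks whether angiotensin II (AngII), the vasoconstrictor peptide of the renin system, moved a gene by a different amount in the aorta of 2 inbred mouse strains. It rests on all 16 RNA sequencing samples of the series, each from whole descending thoracic aorta: 4 C57BL/6J controls, 4 C57BL/6J samples with AngII, 4 129S6/SvEvTac controls and 4 129S6/SvEvTac samples with AngII. For each gene the log2 change with AngII in 129S6/SvEvTac was subtracted from the log2 change with AngII in C57BL/6J, so a positive difference means a higher effect in C57BL/6J and a negative difference a lower effect there. Of the 52636 genes in the count table, 17125 had enough counts for this test. Beyond that filter on low counts, no gene was picked to enter it. The labels name strain and treatment and no other genetic alteration; the sources used here give neither the AngII dose and duration nor whether each sample was a different animal; the p-values therefore measure only how far these samples differ, which may be technical.

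AngII acts through its type 1 receptor to contract smooth muscle, and a sustained rise in pressure loads the vessel wall, which can respond with matrix deposition, leukocyte entry and a loss of contractile proteins from smooth muscle cells. Contractile genes are switched on by serum response factor with its coactivator myocardin, through a DNA element called the CArG box. Bone morphogenetic protein (BMP) signalling switches on its own inhibitor Smad6 and the Id genes, and inflammatory signalling runs through the NF-kB factors and through the interleukin 6 family.

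AngII moved 1706 genes to a different extent in the 2 strains, which is 9.96% of the genes tested, at an adjusted p below 0.05 in edgeR's quasi-likelihood test with Benjamini-Hochberg adjustment. The effect was higher in C57BL/6J for 914 genes (5.34%) and lower for 792 (4.62%). With library sizes alone in place of TMM scaling, 65.2% of the calls were higher, against 53.6% here. Within C57BL/6J, 6664 genes changed with AngII (38.9%), 3737 up (21.8%) and 2927 down (17.1%). Within 129S6/SvEvTac, 2087 genes changed (12.2%), 1321 up (7.71%) and 766 down (4.47%). The median difference over all genes tested was 0.02 (log2). Some genes named below share exon sequence with a neighbour on the same or the opposite strand. Since the strand setting of the counting was not stated, their values are less certain. They include Tagln, Des, Vcl, Adra1d, Ednra, Ace, Npr1, Gucy1a1, Ilk, Il6ra, Csf1r, Cfb, Adam8, Mmp19, Spp1, Col3a1, Eln, Igfbp7, Hgf, Gfra1, Runx1, Slc7a2, Cry2, Has2 and Irf7. Reads of Acta2 may also be shared with the other actin genes.

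Most differences came from a change seen in C57BL/6J. Of the 1706 genes, 735 rose with AngII in C57BL/6J only and 548 fell in C57BL/6J only, where "only" means that the change in the other strain did not pass the threshold while the difference itself did. Another 148 rose in both strains, 130 of them by more in C57BL/6J, and 50 fell in both, all 50 by more in C57BL/6J. The reverse was less frequent: 112 genes rose in 129S6/SvEvTac only and 25 fell there only. In 48 genes AngII had opposite called effects, 39 falling in C57BL/6J while rising in 129S6/SvEvTac and 9 the other way, and 40 genes passed the test of the difference with no called change in either strain.

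**Figure D1:**
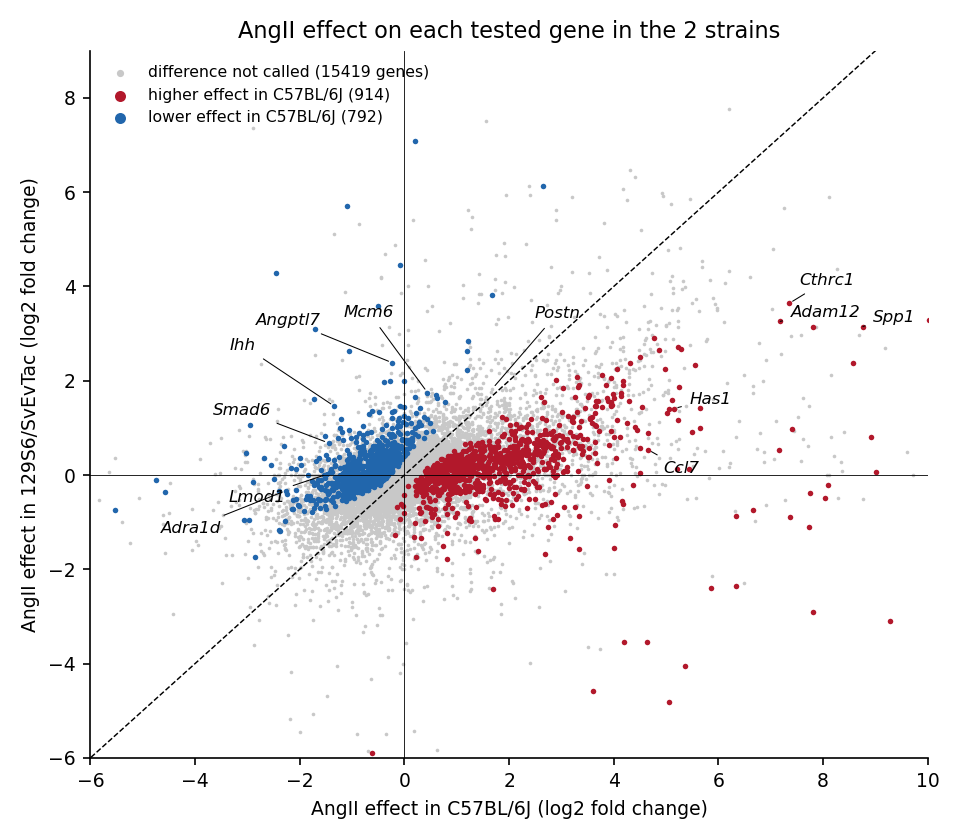
AngII effect on each tested gene in C57BL/6J (x axis, log2 fold change) and in 129S6/SvEvTac (y axis, log2 fold change), with genes called for a higher (red, 914) or lower (blue, 792) effect in C57BL/6J and the remaining genes in grey. The dashed line marks equal effects, the red genes stretch along the x axis with little change in 129S6/SvEvTac, and 24 genes lie outside the axes.

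Total counts ran from 42116120 to 61381134 in 15 libraries and reached 121573945 in 129S6/SvEvTac AngII replicate 5. The contractile genes that define the tissue were present in all 16, their summed level being 70437 to 76562 CPM in C57BL/6J controls and 72810 to 79277 CPM in 129S6/SvEvTac controls. The 16 libraries were not equally placed within their groups. C57BL/6J AngII replicate 3 lay nearest the controls on several lists, with a mean log2 CPM of 9.43 over the 30 contractile genes against 8.40, 8.80 and 8.77 in replicates 1, 2 and 5. Adipocyte markers stood highest in C57BL/6J AngII replicates 1 and 5, at a mean log2 CPM of 7.37 and 6.21, where the C57BL/6J controls held 2.93 to 4.36. Their level in 129S6/SvEvTac ran from 3.59 to 5.28 in controls and from 4.36 to 6.13 with AngII. Single libraries moved the total: 2990 genes were called without C57BL/6J AngII replicate 3, 1076 without 129S6/SvEvTac AngII replicate 4 and 1039 without 129S6/SvEvTac control replicate 2. Of the 1706 calls, 867 were kept in every one of the 16 omissions, and no called gene was called in the opposite direction in any of them. With the adipocyte marker level of each library as a covariate, named the adipocyte covariate from here, 1128 genes were called. Leaving out C57BL/6J AngII replicate 1 and 129S6/SvEvTac AngII replicate 5 together, the double omission, gave 1049. The level of skeletal and cardiac muscle markers as a covariate, the muscle covariate, gave 1519. DESeq2 called 2663 and limma voom 2670.

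**Figure D2:**
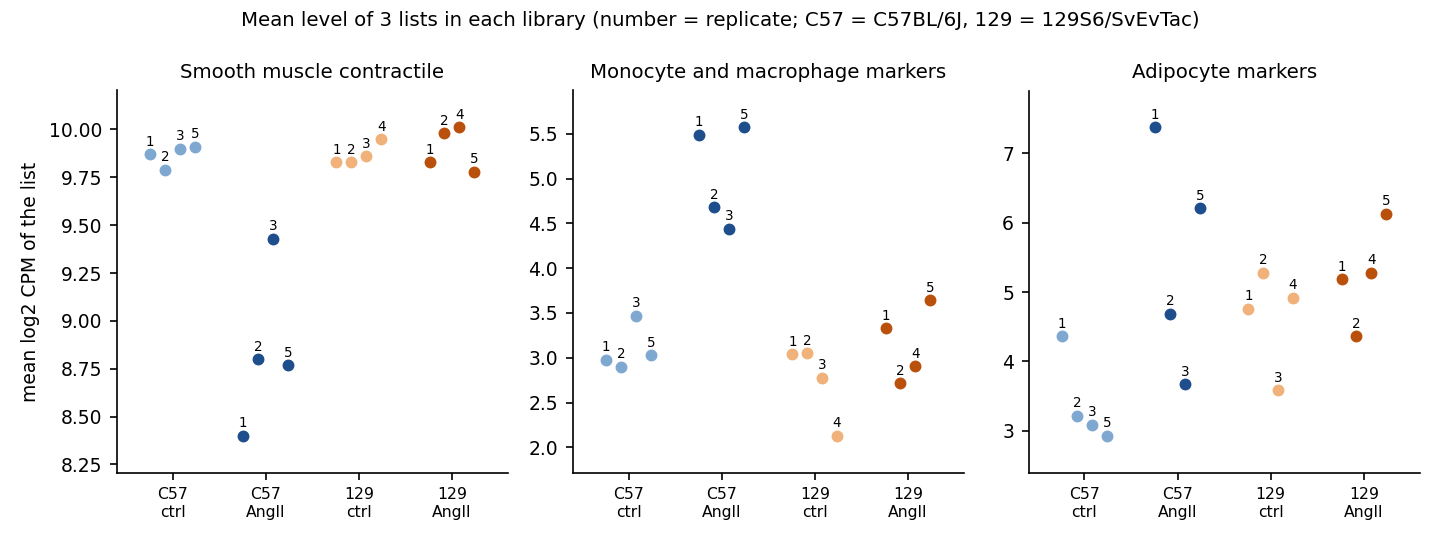
Mean log2 CPM of the genes of 3 lists (y axis) in each of the 16 libraries, by group, with the replicate number over each point. The 4 C57BL/6J AngII libraries lie below all others for contractile genes and above all others for macrophage markers, and adipocyte markers range from 3.67 to 7.37 within that group.

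Genes of the smooth muscle contractile apparatus fell with AngII in C57BL/6J and not, at the same threshold, in 129S6/SvEvTac. All 30 listed genes had an estimate of the difference below 0, 22 of them called (15 to 26 over the omissions), with a median of -1.02 (log2) against 0.02 over all genes tested. The 22 called made 73.3% of the list, against 4.62% called lower over all genes tested. In C57BL/6J 25 of the 30 fell and none rose, and in 129S6/SvEvTac 1 rose and none fell. In samples of whole tissue, fewer cells of a type and less RNA per cell cannot be told apart, here and for every cell type below. Adipocyte markers were highest in the same library, C57BL/6J AngII replicate 1, in which contractile genes were lowest, and with the adipocyte level as a covariate 20 genes were called; beyond that the part of this in the result was not tested.

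Lmod1 encodes leiomodin 1, which nucleates actin filaments in smooth muscle, and lies at chr1:135324807-135368065, plus strand (GRCm38). In CPM, the count scaled to a common library total, with values in the order of replicates 1, 2, 3 and 5 for both C57BL/6J groups, it stood at 1516, 1465, 1523 and 1495 CPM in the C57BL/6J controls and 411, 439.8, 811 and 506 CPM in the C57BL/6J AngII samples. In 129S6/SvEvTac, in the order of replicates 1, 2, 3 and 4 for controls and 1, 2, 4 and 5 with AngII, Lmod1 stood at 1177, 1177, 1072 and 1114 CPM in the 129S6/SvEvTac controls and 1076, 1158, 1244 and 1120 CPM in the 129S6/SvEvTac AngII samples. Every C57BL/6J AngII sample lay below every other sample, while the 2 129S6/SvEvTac groups overlapped. The log2 change was -1.47 (adjusted p = 8.81e-06) in C57BL/6J and 0.02 (adjusted p = 0.963) in 129S6/SvEvTac, a difference of -1.49 (log2, SE 0.22, adjusted p = 0.00192).

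Acta2, the smooth muscle actin itself (chr19:34241090-34255590, minus strand), showed the same arrangement. It stood at 17172, 17597, 18657 and 18405 CPM in the C57BL/6J controls and 6303, 8234, 13696 and 8943 CPM in the C57BL/6J AngII samples. The 129S6/SvEvTac values were 17421, 17649, 16188 and 18305 CPM in the 129S6/SvEvTac controls and 16559, 19477, 20628 and 16080 CPM in the 129S6/SvEvTac AngII samples. The 4 C57BL/6J AngII samples were the lowest of all 16, replicate 3 being the highest of the 4, and the difference was -1.01 (log2, SE 0.25, adjusted p = 0.0207).

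Cnn1, calponin 1, an actin-binding brake on the myosin motor, fell below its controls in C57BL/6J only. Its level was 1575, 1501, 1761 and 1864 CPM in the C57BL/6J controls and 427, 922, 1462 and 804 CPM in the C57BL/6J AngII samples. In the other strain it was 1656, 1563, 1559 and 1584 CPM in the 129S6/SvEvTac controls and 2135, 2447, 2853 and 2185 CPM in the 129S6/SvEvTac AngII samples. All 4 of the 129S6/SvEvTac AngII samples were above their controls, although that change of 0.60 (adjusted p = 0.134) did not pass the threshold, and the difference was -1.49 (SE 0.35, adjusted p = 0.0163).

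Genes for proteins that connect the filaments to the cell membrane and to each other also had a lower effect in C57BL/6J. Vcl, vinculin, which anchors actin at adhesions, was at 834, 803, 839.7 and 834 CPM in the C57BL/6J controls and 486, 652, 898 and 474 CPM in the C57BL/6J AngII samples. Its 129S6/SvEvTac values were 905, 844, 867 and 901 CPM in the 129S6/SvEvTac controls and 1157, 1256, 1392 and 1119 CPM in the 129S6/SvEvTac AngII samples. C57BL/6J AngII replicate 3 lay above all its controls, and every 129S6/SvEvTac AngII sample lay above its own. Neither change passed the threshold on its own, at -0.40 (adjusted p = 0.055) in C57BL/6J and 0.49 (adjusted p = 0.0555) in 129S6/SvEvTac, yet the difference of -0.88 (SE 0.22, adjusted p = 0.0219) did. Des, desmin, the intermediate filament of muscle, ranged over 115 to 150.5 CPM in C57BL/6J controls and 53 to 84.4 CPM with AngII, against 201 to 244 and 201 to 278 CPM in 129S6/SvEvTac, a difference of -1.29 (SE 0.20, adjusted p = 0.0023). Tagln, transgelin, an actin cross-linker, differed by -1.14 (SE 0.26, adjusted p = 0.0143).

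Regulators of the motor differed too. Ppp1r14a, an inhibitor of myosin phosphatase, ranged over 214 to 266 CPM in C57BL/6J controls and 51.1 to 109 CPM with AngII, against 232 to 289.7 and 222 to 262 CPM in 129S6/SvEvTac, and its difference was -1.54 (SE 0.24, adjusted p = 0.0023). Myl6, a myosin light chain, fell in C57BL/6J by 1.08 on the log2 scale and differed by -0.79 (SE 0.16, adjusted p = 0.00858). Myh11, the smooth muscle myosin heavy chain, ranged over 9256 to 10373 CPM in C57BL/6J controls and 1732 to 5811 CPM with AngII, against 9846 to 10802 and 7630 to 9467 CPM in 129S6/SvEvTac. Its difference of -1.35 (SE 0.36, adjusted p = 0.0303) was lost in 9 of the 16 omissions, with adjusted p between 0.0519 (without 129S6/SvEvTac control replicate 3) and 0.0616 (without 129S6/SvEvTac AngII replicate 4); the other 7 of the 9 were 129S6/SvEvTac AngII replicate 2, 129S6/SvEvTac control replicates 1 and 2, C57BL/6J AngII replicates 2 and 5 and C57BL/6J control replicates 1 and 3.

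Of the 2 transcriptional regulators of this set, 1 was called and 1 was not. Srf, serum response factor, which is outside the rule for named genes and was chosen after its values were seen, stood at 156, 154, 165 and 156 CPM in the C57BL/6J controls and 77.5, 86.2, 119 and 86.1 CPM in the C57BL/6J AngII samples. Its 129S6/SvEvTac values were 148, 144, 141 and 145 CPM in the 129S6/SvEvTac controls and 123, 131, 132 and 144 CPM in the 129S6/SvEvTac AngII samples, and its difference was -0.65 (SE 0.15, adjusted p = 0.0143). Myocd, its coactivator myocardin, ranged over 56.7 to 88.8 CPM in C57BL/6J controls and 43.6 to 97.9 CPM with AngII, against 48.1 to 87.1 and 56.1 to 84.5 CPM in 129S6/SvEvTac, with all groups overlapping. The Myocd difference was -0.09 (95% interval -0.83 to 0.65, adjusted p = 0.909), and its sign changed between settings. That interval holds the Srf estimate of -0.65, and no test compared the 2 genes.

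The promoters of the contractile list were searched for the CArG box because its members moved together. Within the 250 bases before the start, on either strand, a full CArG box was held by Ldb3, Myl6, Myl9, Srf and Vcl. These were 5 of the 25 listed genes with a RefSeq window (20%), against 1.62% of the 27025 genes whose windows were kept. No test was made of this share, a match is a description and not a bound site, and a window without these letters says nothing about the factor. The windows of Srf, Vcl and Myl6 follow because these 3 genes are described above and hold the element, 5′ to 3′ in the direction of the gene, with the CArG box in capitals (RefSeq, GRCm38.p6).
Srf at chr17:46556163-46556412, minus strand: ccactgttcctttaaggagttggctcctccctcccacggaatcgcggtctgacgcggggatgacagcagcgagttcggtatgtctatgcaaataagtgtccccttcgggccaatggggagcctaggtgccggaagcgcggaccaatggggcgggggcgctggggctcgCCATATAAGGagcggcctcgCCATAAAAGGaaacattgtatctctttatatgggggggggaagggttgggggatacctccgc
Vcl at chr14:20929148-20929397, plus strand: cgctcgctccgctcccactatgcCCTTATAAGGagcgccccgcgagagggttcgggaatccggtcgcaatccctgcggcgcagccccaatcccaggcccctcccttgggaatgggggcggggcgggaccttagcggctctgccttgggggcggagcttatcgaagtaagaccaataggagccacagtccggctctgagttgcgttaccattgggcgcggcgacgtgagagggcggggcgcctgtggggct
Myl6 at chr10:128493010-128493259, minus strand, a later start of 2 listed for the gene: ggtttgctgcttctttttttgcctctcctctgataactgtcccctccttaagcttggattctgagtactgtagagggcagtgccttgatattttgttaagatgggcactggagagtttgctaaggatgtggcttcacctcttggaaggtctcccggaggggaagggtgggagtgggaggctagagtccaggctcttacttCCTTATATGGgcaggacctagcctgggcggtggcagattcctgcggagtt
Srf holds 2 copies, and Vcl and Myl6 hold 1 each.

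Genes that set vessel tone were split. Of 29 vasoactive receptor and renin-angiotensin genes tested, 3 had a lower effect in C57BL/6J (Tbxa2r, Adra1d and Ace) and 2 a higher effect (Ednra and Adrb1). Both directions together made 17.2% of the list, against 9.96% of all genes tested. The count of 2 became 6 without C57BL/6J AngII replicate 3 and 1 in 11 other omissions, those of 129S6/SvEvTac AngII replicates 2 and 4, 129S6/SvEvTac control replicates 1, 2 and 3, C57BL/6J AngII replicates 1 and 5 and all 4 C57BL/6J controls. It was 1 with the double omission, the adipocyte covariate, the muscle covariate or no filter and 4 with DESeq2 or limma voom. The median difference of the list was 0.21 (log2).

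Adra1d, an alpha-1 adrenergic receptor that contracts the aorta, stood at 90.6, 97.3, 76.8 and 67.9 CPM in the C57BL/6J controls and 14.9, 9.94, 21.6 and 22.9 CPM in the C57BL/6J AngII samples. The 129S6/SvEvTac samples were at 58.2, 51.1, 53.9 and 54.8 CPM in the 129S6/SvEvTac controls and 38.4, 47.3, 49.1 and 39 CPM in the 129S6/SvEvTac AngII samples. C57BL/6J fell 4.79-fold with no overlap, 129S6/SvEvTac changed by -0.33 (adjusted p = 0.334), and the difference was -1.93 (log2, SE 0.28, adjusted p = 0.00159). Tbxa2r, the thromboxane A2 receptor, another constrictor receptor, ranged over 40.4 to 45.4 CPM in C57BL/6J controls and 15.2 to 21.7 CPM with AngII, against 40.03 to 48.8 and 40.8 to 51.9 CPM in 129S6/SvEvTac, a difference of -1.21 (SE 0.16, adjusted p = 0.000863).

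Ednra, the endothelin A receptor, went the other way. It stood at 9.62, 8.2, 11.5 and 7.02 CPM in the C57BL/6J controls and 44.7, 31.8, 35.4 and 59.3 CPM in the C57BL/6J AngII samples. Its 129S6/SvEvTac values were 14.5, 13.3, 12.6 and 12.5 CPM in the 129S6/SvEvTac controls and 25.5, 12, 11.9 and 15.2 CPM in the 129S6/SvEvTac AngII samples. C57BL/6J rose 4.71-fold, and of the 129S6/SvEvTac AngII samples replicates 1 and 5 lay above all their controls and replicates 2 and 4 below. The difference was 1.95 (SE 0.34, adjusted p = 0.00412).

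Ace, the angiotensin-converting enzyme that produces AngII, rose in 129S6/SvEvTac. It was at 607, 512, 554 and 488 CPM in the 129S6/SvEvTac controls and 1085, 1410, 1060 and 932 CPM in the 129S6/SvEvTac AngII samples, a 2.08-fold rise without overlap. The C57BL/6J values, 704, 648, 764 and 753 CPM in the C57BL/6J controls and 474, 586, 868 and 758 CPM in the C57BL/6J AngII samples, overlapped, with a change of -0.09 (adjusted p = 0.681). Its difference was -1.15 (SE 0.23, adjusted p = 0.00829).

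Cyclic nucleotide signalling, which relaxes smooth muscle, held 3 called genes of 21, all with a lower effect in C57BL/6J (Npr1, Adcy5 and Npr2). They made 14.3% of the list, against 4.62% called lower over all genes tested. The count was 8 without C57BL/6J AngII replicate 3 and 7 with limma voom. Npr1, the receptor of atrial natriuretic peptide, stood at 491, 466, 532 and 446 CPM in the C57BL/6J controls and 176, 201, 288 and 219 CPM in the C57BL/6J AngII samples. Its 129S6/SvEvTac values were 438, 416, 409 and 393 CPM in the 129S6/SvEvTac controls and 367, 389, 402 and 374 CPM in the 129S6/SvEvTac AngII samples. The Npr1 difference was -1.02 (SE 0.17, adjusted p = 0.00267). Adcy5, an adenylyl cyclase, fell by 1.33 on the log2 scale in C57BL/6J and differed by -1.30 (SE 0.22, adjusted p = 0.00357). Gucy1a1, part of the guanylyl cyclase that senses nitric oxide, fell in both strains, by 1.53 and 1.17, and its difference of -0.35 (SE 0.36, adjusted p = 0.589) became -0.78 (adjusted p = 0.0124) without C57BL/6J AngII replicate 3. Of 24 genes of calcium and potassium handling 3 had a lower effect, Kcnmb1 and Cacna1c among them, a count that was 1 without 129S6/SvEvTac AngII replicate 4 or 129S6/SvEvTac control replicate 1 or 2 or C57BL/6J AngII replicate 5 or C57BL/6J control replicate 1 or 3 and 9 without C57BL/6J AngII replicate 3. Among other settings it was 5 with DESeq2 and 9 with limma voom. The 3 called lower made 12.5% of the list, against 4.62% over all genes tested.

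**Figure D3:**
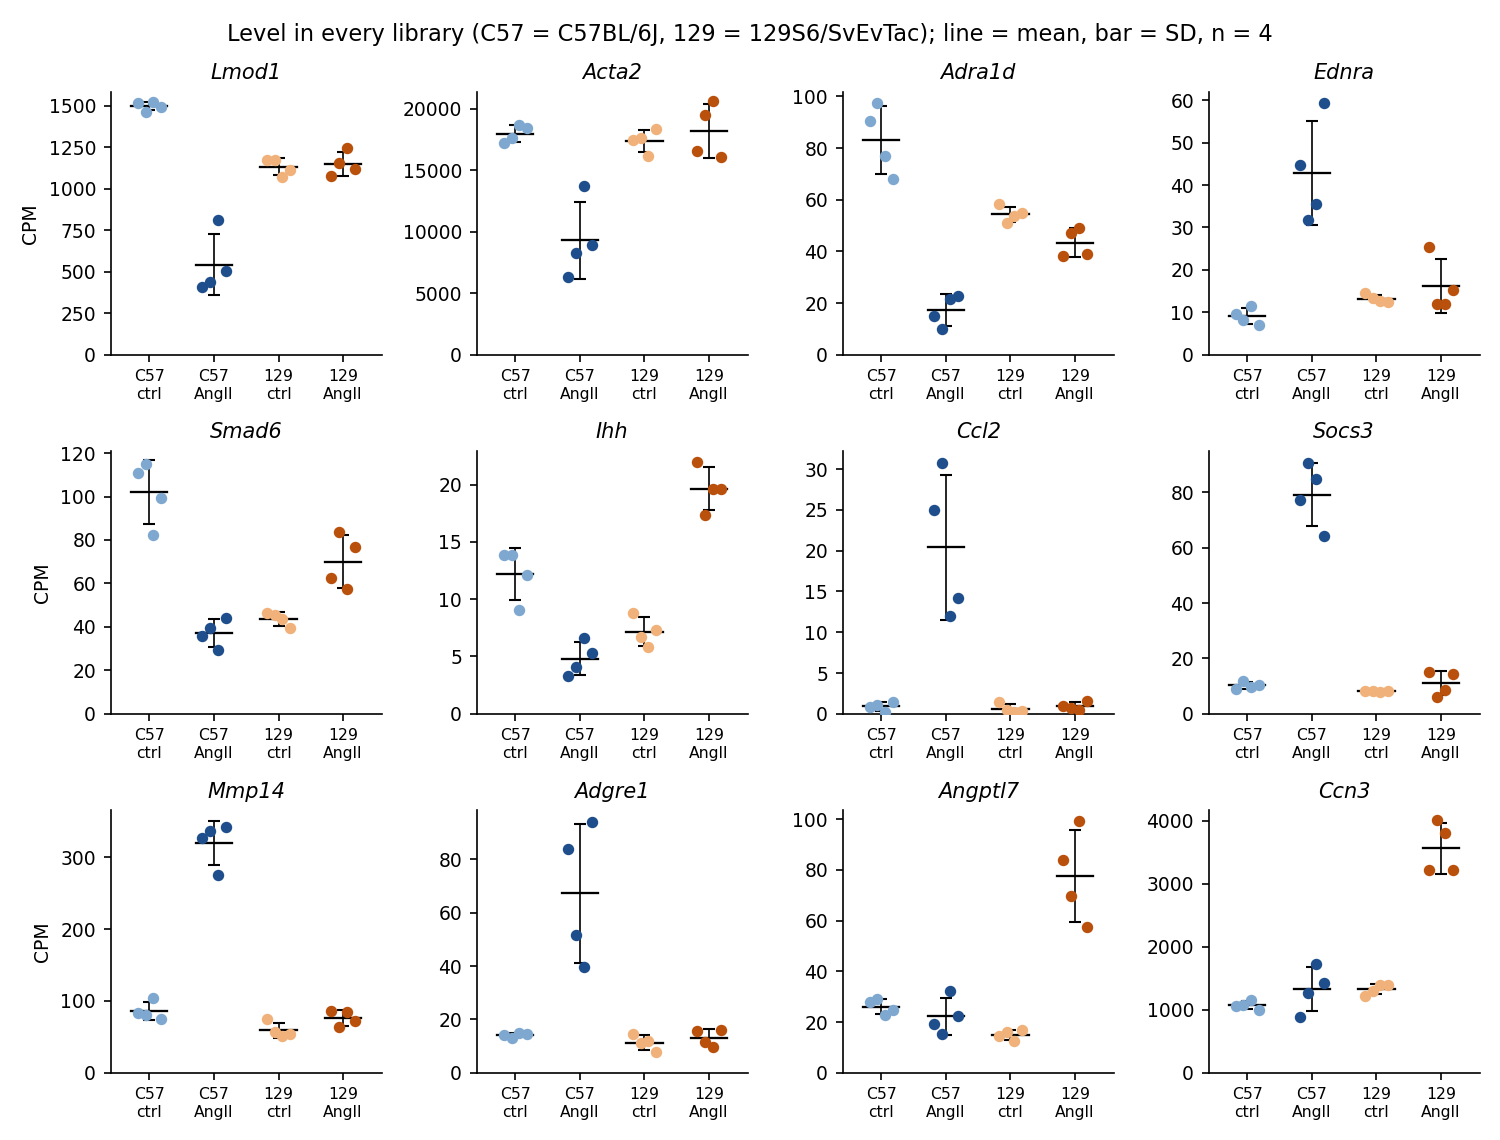
Level of 12 genes in every library (y axis, CPM from 0; points, samples; line, mean; bar, SD; n = 4 a group). Lmod1, Acta2 and Adra1d were lowest with AngII in C57BL/6J, Smad6 and Ihh fell in C57BL/6J and rose in 129S6/SvEvTac, Ccl2, Socs3, Mmp14, Ednra and Adgre1 were highest with AngII in C57BL/6J, and Angptl7 and Ccn3 with AngII in 129S6/SvEvTac.

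Smad6 and Id2 of the BMP pathway moved in opposite directions in the 2 strains. Of 29 TGF-beta and BMP genes tested, 6 had a lower effect in C57BL/6J (5 to 8 over the omissions) and 3 a higher effect, which became 5 without C57BL/6J AngII replicate 2 and 5 with DESeq2 or limma voom. Calls in either direction made 31% of the list, against 9.96% of all genes tested. The list median was -0.15 (log2). The 6 were Smad6, Id2, Inhbb, Fstl3, Bmp4 and Bmp6, and the 3 included Fst and Smad3.

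Smad6, the inhibitory SMAD that BMP signalling induces, lies at chr9:63953076-64022059, minus strand. It stood at 111, 115, 82.2 and 99.3 CPM in the C57BL/6J controls and 35.9, 39.7, 29.1 and 44.1 CPM in the C57BL/6J AngII samples. Samples of 129S6/SvEvTac held 46.4, 45.3, 43.9 and 39.4 CPM in the 129S6/SvEvTac controls and 62.7, 83.6, 57.2 and 76.8 CPM in the 129S6/SvEvTac AngII samples. All C57BL/6J samples fell below their controls and all 129S6/SvEvTac samples rose above theirs. The log2 changes were -1.45 (adjusted p = 4.41e-06) and 0.68 (adjusted p = 0.00663), a difference of -2.13 (SE 0.20, adjusted p = 0.000116). In controls C57BL/6J held the higher level, 102 ± 14.7 against 43.7 ± 3.11 CPM (SD, n = 4).

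Id2, an inhibitor of helix-loop-helix factors and a BMP target, had the same pattern. Its C57BL/6J values were 289.8, 252, 162 and 158 CPM in the C57BL/6J controls and 85.7, 83.9, 96.4 and 92.8 CPM in the C57BL/6J AngII samples. Those of 129S6/SvEvTac were 93.5, 99.9, 88 and 50.9 CPM in the 129S6/SvEvTac controls and 141, 136, 146 and 149 CPM in the 129S6/SvEvTac AngII samples. Neither strain's groups overlapped, and the difference was -2.05 (SE 0.29, adjusted p = 0.00117).

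Inhbb, the activin beta B subunit, ranged over 9.6 to 14.2 CPM in C57BL/6J controls and 5.54 to 8.58 CPM with AngII, against 11 to 11.7 and 11.8 to 17.3 CPM in 129S6/SvEvTac and differed by -1.20 (SE 0.22, adjusted p = 0.00478).

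Ihh, the ligand Indian hedgehog, gave the largest negative difference among these opposite genes. Its levels were low: 13.8, 13.9, 9.04 and 12.1 CPM in the C57BL/6J controls and 3.26, 4.09, 6.59 and 5.34 CPM in the C57BL/6J AngII samples. In 129S6/SvEvTac they were 8.82, 6.66, 5.82 and 7.28 CPM in the 129S6/SvEvTac controls and 22, 17.3, 19.6 and 19.6 CPM in the 129S6/SvEvTac AngII samples. The change was -1.34 (adjusted p = 0.000119) against 1.46 (adjusted p = 0.000348), and the difference -2.80 (SE 0.29, adjusted p = 0.000224).

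Other opposite genes differed by less but with little spread. Mob2, a regulator of NDR kinases, stood at 73.8, 71.3, 63.9 and 57.3 CPM in the C57BL/6J controls and 33.7, 31.4, 34.2 and 33.7 CPM in the C57BL/6J AngII samples. Its 129S6/SvEvTac levels were 49.8, 48.1, 43.6 and 44.1 CPM in the 129S6/SvEvTac controls and 56.5, 56, 56.5 and 56.6 CPM in the 129S6/SvEvTac AngII samples. The spread within the 129S6/SvEvTac AngII group was under 1 CPM, and the difference was -1.28 (SE 0.11, adjusted p = 5.38e-05). Mmp17, a membrane-bound metalloproteinase made by smooth muscle, differed by -1.15 (SE 0.15, adjusted p = 0.000848). It fell in C57BL/6J and rose in 129S6/SvEvTac.

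Integrins and their linkers, which carry load between matrix and cytoskeleton, held 6 called genes of 25 with a lower effect in C57BL/6J (12 without C57BL/6J AngII replicate 3 or with limma voom) and 2 with a higher effect. Calls in either direction made 32% of the list, against 9.96% of all genes tested. Itga9, a tenascin and osteopontin receptor subunit, ranged over 1304 to 1485 CPM in C57BL/6J controls and 748 to 1200 CPM with AngII, against 1205 to 1473 and 1682 to 1782 CPM in 129S6/SvEvTac, a difference of -1.02 (SE 0.17, adjusted p = 0.00322). Itgb5, an integrin beta subunit that pairs with alpha V, fell by 0.28 in C57BL/6J and rose by 0.34 in 129S6/SvEvTac (log2), a difference of -0.63 (SE 0.11, adjusted p = 0.00488). Ilk, integrin-linked kinase, differed by -0.86 (SE 0.15, adjusted p = 0.00445).

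Chemokines and cytokines rose with AngII in C57BL/6J and rarely in 129S6/SvEvTac. Of 29 tested, 10 had a called higher effect in C57BL/6J (7 to 14 over the omissions) and none a lower effect, with a median difference of 1.88 (log2). In C57BL/6J 24 rose and 1 fell, and in 129S6/SvEvTac 2 rose and 1 fell. The 10 were Cxcl12, Ccl7, Lif, Ccl2, Cxcl14, Cxcl16, Ccl9, Il6, Ccl19 and Il33. They made 34.5% of the list, against 5.34% called higher over all genes tested.

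Il6, the inflammatory cytokine interleukin 6, was detected in all 4 C57BL/6J AngII samples and in 2 of the other 12. No read was counted in the 4 C57BL/6J controls, while the C57BL/6J AngII samples held 4.02, 16.4, 14.5 and 7.61 CPM. Among the 129S6/SvEvTac samples it was detected in control replicate 2 (0.0564 CPM) and AngII replicate 5 (0.0524 CPM) and at 0 in the other 6. With the control group set to a floor of 3 counts in all, the rise in C57BL/6J was at least 700-fold. The difference had an adjusted p of 0.0204, and without 129S6/SvEvTac control replicate 2, which leaves both control groups at 0, the call was lost (adjusted p = 1).

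Lif, a cytokine of the same family, stood at 1.29, 1.64, 1.42 and 1.51 CPM in the C57BL/6J controls and 7.58, 13.7, 5.74 and 6.23 CPM in the C57BL/6J AngII samples. The 129S6/SvEvTac values were 1.15, 2.01, 1.71 and 1.55 CPM in the 129S6/SvEvTac controls and 1.62, 0.707, 1.16 and 2.17 CPM in the 129S6/SvEvTac AngII samples, and the difference was 2.67 (SE 0.47, adjusted p = 0.00406). Socs3, the feedback inhibitor that this family induces through STAT3 (chr11:117966079-117970047, minus strand), was at 9.02, 11.9, 9.7 and 10.5 CPM in the C57BL/6J controls and 77.4, 90.7, 84.7 and 64.1 CPM in the C57BL/6J AngII samples. For 129S6/SvEvTac the values were 8.21, 8.22, 8.02 and 8.38 CPM in the 129S6/SvEvTac controls and 15.2, 6.21, 8.74 and 14.2 CPM in the 129S6/SvEvTac AngII samples. A 7.69-fold rise in C57BL/6J stood against a change of 0.44 (adjusted p = 0.215) in 129S6/SvEvTac, a difference of 2.50 (SE 0.30, adjusted p = 0.00078).

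Il6 and Lif were shown by their promoters because both belong to this family and both held a match to the NF-kB element. In the chemokine and cytokine list, 7 of 23 genes with a RefSeq window held a match. Both strands of the 250 bases before the start were searched. That share is 30.4%, against 8.23% of the 27025 genes whose windows were kept, and no test was made of it. Of the 7 genes only Ccl9, Il6 and Lif were called for a difference. The windows are given 5′ to 3′ in the direction of the gene, with the match in capitals (RefSeq, GRCm38.p6).
Il6 at chr5:30012864-30013113, plus strand: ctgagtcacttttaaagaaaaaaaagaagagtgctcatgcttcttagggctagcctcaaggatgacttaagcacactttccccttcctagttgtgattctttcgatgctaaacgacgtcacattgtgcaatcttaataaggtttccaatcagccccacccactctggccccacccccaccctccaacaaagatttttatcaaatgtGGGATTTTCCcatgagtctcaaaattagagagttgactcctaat
Lif at chr11:4257318-4257567, plus strand: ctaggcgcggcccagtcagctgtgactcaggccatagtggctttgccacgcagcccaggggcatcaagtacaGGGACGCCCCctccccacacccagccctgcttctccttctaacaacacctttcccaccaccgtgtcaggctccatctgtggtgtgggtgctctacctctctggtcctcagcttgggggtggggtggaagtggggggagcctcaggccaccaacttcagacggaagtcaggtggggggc
Each window held 1 match; as above, a match is a description and not a bound site.

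Ccl2, which draws monocytes from blood, was at 0.888, 1.08, 0.221 and 1.43 CPM in the C57BL/6J controls and 24.9, 30.7, 12 and 14.2 CPM in the C57BL/6J AngII samples. The 129S6/SvEvTac samples stayed at 1.47, 0.452, 0.253 and 0.399 CPM in the 129S6/SvEvTac controls and 0.925, 0.732, 0.461 and 1.61 CPM in the 129S6/SvEvTac AngII samples. All 12 samples other than the C57BL/6J AngII group lay under 2 CPM, and the difference was 3.92 (SE 0.82, adjusted p = 0.00951). Ccl7, a neighbouring monocyte chemokine, ranged over 0.541 to 1.17 CPM in C57BL/6J controls and 16.4 to 28.6 CPM with AngII, against 0.338 to 1.94 and 0.307 to 2.19 CPM in 129S6/SvEvTac, a difference of 4.11 (SE 0.71, adjusted p = 0.00386).

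Cxcl14, a chemokine of fibroblasts and epithelia, was spread widely within the C57BL/6J AngII group. It stood at 0.536, 0.626, 0.461 and 0.382 CPM in the C57BL/6J controls and 25.4, 25.8, 3.27 and 20.4 CPM in the C57BL/6J AngII samples. Replicate 3 was the low value of its group. The 129S6/SvEvTac samples stood at 1.56, 1.84, 0.443 and 2.08 CPM in the 129S6/SvEvTac controls and 3.25, 0.833, 2.42 and 6.68 CPM in the 129S6/SvEvTac AngII samples, and the difference was 4.05 (SE 0.92, adjusted p = 0.0142). Cxcl12, the stromal chemokine that retains CXCR4 cells, differed by less, 1.50 (SE 0.19, adjusted p = 0.000795), with levels of 47.3 to 53.2 CPM in C57BL/6J controls and 106 to 157 CPM with AngII, against 62.8 to 77.5 and 52.8 to 73.2 CPM in 129S6/SvEvTac.

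Receptors and their signalling genes were also higher with AngII in C57BL/6J. Of 26 chemokine and cytokine receptor and signalling genes, 15 had a higher effect in C57BL/6J and none a lower effect, with a median of 1.26 (log2) and every estimate above 0. The 15 made 57.7% of the list, against 5.34% called higher over all genes tested. That count was sensitive to single libraries: 7 without 129S6/SvEvTac control replicate 2, 8 without 129S6/SvEvTac control replicate 1 or C57BL/6J AngII replicate 5 or C57BL/6J control replicate 1 or 2 or 5 and 9 without 129S6/SvEvTac AngII replicate 2 or 4 or C57BL/6J AngII replicate 1. It was 7 with the adipocyte covariate and 9 with the double omission, and the part of the adipocyte marker level in the result was not otherwise tested. Il13ra1, a receptor chain for interleukin 13, ranged over 30.7 to 33.8 CPM in C57BL/6J controls and 57.9 to 74.2 CPM with AngII, against 27.6 to 29.2 and 29.3 to 36.8 CPM in 129S6/SvEvTac, a difference of 0.88 (SE 0.12, adjusted p = 0.00117). Tnfrsf1b, a TNF receptor of leukocytes, ranged over 15.7 to 25.5 CPM in C57BL/6J controls and 53.6 to 73.6 CPM with AngII, against 7.88 to 10.2 and 10.2 to 14.7 CPM in 129S6/SvEvTac, a difference of 1.35 (SE 0.22, adjusted p = 0.00293). Il6ra, the ligand-binding chain for interleukin 6, differed by 1.47 (SE 0.30, adjusted p = 0.00873).

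Monocyte and macrophage markers were higher with AngII in C57BL/6J and not called in most cases in 129S6/SvEvTac. Of 27 tested, 18 had a higher effect in C57BL/6J (12 to 19 over the omissions) and none a lower effect, with a median of 1.76 (log2). The 18 made 66.7% of the list, against 5.34% called higher over all genes tested. The summed level of the list was 518 to 664 CPM in C57BL/6J controls, 1502 to 2901 with AngII, 337 to 544 in 129S6/SvEvTac controls and 461 to 858 with AngII. Only Marco was at 0 in a whole group, the 129S6/SvEvTac AngII samples. The mean log2 level changed by 1.95 in C57BL/6J (exact permutation p = 0.0286, the smallest that 4 against 4 allows; 0.157 adjusted over 22 such tests) and by 0.40 in 129S6/SvEvTac (exact permutation p = 0.286, adjusted 0.484). With the adipocyte covariate 11 of the 27 were called.

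Adgre1, the F4/80 antigen of macrophages, stood at 14.2, 12.9, 14.8 and 14.5 CPM in the C57BL/6J controls and 84, 51.5, 39.5 and 94.1 CPM in the C57BL/6J AngII samples. Its 129S6/SvEvTac values were 14.4, 11, 11.9 and 7.7 CPM in the 129S6/SvEvTac controls and 15.6, 11.5, 9.77 and 16 CPM in the 129S6/SvEvTac AngII samples. Replicates 1 and 5 of the C57BL/6J AngII group were the highest, as they were for adipocyte markers, and the difference was 2.02 (SE 0.36, adjusted p = 0.00412). Mrc1, the mannose receptor of tissue macrophages, Msr1, a scavenger receptor, and Csf1r, the receptor for the macrophage growth factor, differed by 1.62 (SE 0.30, adjusted p = 0.00576), 1.80 (SE 0.36, adjusted p = 0.00782) and 1.50 (SE 0.31, adjusted p = 0.00969). Msr1 also rose in 129S6/SvEvTac, by 0.87 (adjusted p = 0.0396).

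Pattern recognition genes had a higher effect in 10 of 23 and a lower effect in none, with a median of 1.15 (log2). These 10 made 43.5% of the list, against 5.34% called higher over all genes tested. The count was 4 without C57BL/6J control replicate 2 or 5, 5 without 129S6/SvEvTac control replicate 1 or 2 or 3 and 6 without 129S6/SvEvTac AngII replicate 4 or C57BL/6J AngII replicate 1 or 5. It was 4 with the double omission or the adipocyte covariate. Clec7a, the fungal glucan receptor dectin-1, was at 2.01, 2.05, 3.55 and 2.63 CPM in the C57BL/6J controls and 10.8, 8.31, 10.4 and 15.7 CPM in the C57BL/6J AngII samples. In 129S6/SvEvTac, where the estimate was below 0, it was at 2.31, 1.94, 2.13 and 0.51 CPM in the 129S6/SvEvTac controls and 1.24, 0.985, 0.812 and 1.75 CPM in the 129S6/SvEvTac AngII samples, and the difference was 2.65 (SE 0.54, adjusted p = 0.00829). Tlr8, a sensor of single-stranded RNA, ranged over 1.19 to 1.5 CPM in C57BL/6J controls and 4.53 to 9.89 CPM with AngII, against 0.821 to 1.76 and 1.36 to 2.15 CPM in 129S6/SvEvTac, a difference of 2.08 (SE 0.38, adjusted p = 0.00451).

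Complement genes had a higher effect in 6 of 22 (Cfb, C3ar1, Cfp, C1qa, C1qb and C1qc) and a lower effect in none, with a median of 1.46 (log2). These 6 made 27.3% of the list, against 5.34% called higher over all genes tested. The count was 3 without 129S6/SvEvTac AngII replicate 4 or 129S6/SvEvTac control replicate 1 or 2 or C57BL/6J control replicate 1 or 2 and 11 without C57BL/6J AngII replicate 3. With all libraries kept it was 3 with the adipocyte covariate, 10 with limma voom and 12 with DESeq2. Cfb, factor B of the alternative pathway, ranged over 20.1 to 29 CPM in C57BL/6J controls and 71.3 to 168 CPM with AngII, against 17.5 to 30.7 and 26.6 to 45.5 CPM in 129S6/SvEvTac, a difference of 1.84 (SE 0.37, adjusted p = 0.00833). C3ar1, the receptor for the C3a fragment, differed by 1.92 (SE 0.43, adjusted p = 0.0133). Of 21 NADPH oxidase and antioxidant genes 6 were called higher (4 to 8 over the omissions) and 1, Sod3, lower. The lower count was 3 without C57BL/6J AngII replicate 3 or with limma voom. Calls in either direction made 33.3% of the list, against 9.96% of all genes tested.

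Lymphocyte markers gave few calls. The share of T and NK cell markers called higher was 10%, against 5.34% over all genes tested. Of 20 T and NK cell markers 2 had a higher effect (Il7r and Klrd1), and 1 without 129S6/SvEvTac control replicate 3 or with a filter of 1 CPM in 4 samples; of 11 B and plasma cell markers none was called. Il7r, the interleukin 7 receptor of lymphocytes, was at 0.352, 0.281, 0.261 and 0.141 CPM in the C57BL/6J controls and 1.91, 2.06, 1.56 and 2.3 CPM in the C57BL/6J AngII samples. The 129S6/SvEvTac samples were at 0.565, 0.715, 1.14 and 0.909 CPM in the 129S6/SvEvTac controls and 0.361, 1.82, 0.944 and 0.83 CPM in the 129S6/SvEvTac AngII samples, a difference of 2.66 (SE 0.60, adjusted p = 0.0132). Of 19 antigen presentation genes 1 was called, Cd80, a costimulator of T cells, which ranged over 0.621 to 1.61 CPM in C57BL/6J controls and 4.88 to 7.58 CPM with AngII, against 0.769 to 1.28 and 1.03 to 1.74 CPM in 129S6/SvEvTac and differed by 2.12 (SE 0.42, adjusted p = 0.00776); that count was 2 without 129S6/SvEvTac AngII replicate 1 or 5, 4 without 129S6/SvEvTac control replicate 4 or C57BL/6J AngII replicate 2 and 9 without C57BL/6J AngII replicate 3. Among other settings it was 2 with a filter of 1 CPM in 4 samples or the muscle covariate, 5 with limma voom and 7 with DESeq2. Within C57BL/6J 15 of the 19 antigen presentation genes rose, against 1 in 129S6/SvEvTac, and their median difference was 1.38 (log2). Cd80, the 1 called for a difference, made 5.26% of that list, against 5.34% called higher over all genes tested.

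Proteases that cut matrix, and their inhibitors, had a higher effect in C57BL/6J in 11 of 30 genes and a lower effect in 1, Adamts9, with a median of 0.41 (log2). Calls in either direction made 40% of the list, against 9.96% of all genes tested. The 11 stayed between 10 and 12 over the omissions and between 10 and 11 under the other alternatives. The count of 1 lower was 0 without 129S6/SvEvTac control replicate 2 or C57BL/6J control replicate 1 and 2 without 129S6/SvEvTac AngII replicate 1 or C57BL/6J AngII replicate 1, and 2 with a filter of 1 CPM in 4 samples, the adipocyte covariate or the muscle covariate and 3 with DESeq2 or limma voom.

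Mmp14, the membrane-bound collagenase that also activates other metalloproteinases (chr14:54431612-54445364, plus strand), stood at 83.6, 80.5, 104 and 74.3 CPM in the C57BL/6J controls and 326, 337, 276 and 342 CPM in the C57BL/6J AngII samples. Its 129S6/SvEvTac values were 74.8, 57.1, 51.7 and 53.6 CPM in the 129S6/SvEvTac controls and 86.3, 63.6, 84 and 71.5 CPM in the 129S6/SvEvTac AngII samples. C57BL/6J rose 3.75-fold with little spread, 129S6/SvEvTac changed by 0.36 (adjusted p = 0.1), and the difference was 1.54 (SE 0.19, adjusted p = 0.000795).

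Adam12, a metalloprotease of activated fibroblasts, rose in both strains. It stood at 1.06, 0.431, 0.982 and 0.483 CPM in the C57BL/6J controls and 121, 169, 57.1 and 86.4 CPM in the C57BL/6J AngII samples. The values in 129S6/SvEvTac were 1.24, 3.12, 1.1 and 1.2 CPM in the 129S6/SvEvTac controls and 14.2, 8, 20.9 and 21 CPM in the 129S6/SvEvTac AngII samples. The rise was 145-fold and 9.56-fold, and the difference 3.92 (SE 0.63, adjusted p = 0.00247). Adam8, a metalloprotease of leukocytes and tumours, ranged over 0.285 to 0.845 CPM in C57BL/6J controls and 8.92 to 20.6 CPM with AngII, against 0.421 to 0.928 and 1.11 to 1.4 CPM in 129S6/SvEvTac, a difference of 3.51 (SE 0.48, adjusted p = 0.0011).

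Timp1, the secreted metalloproteinase inhibitor, was at 13.6, 12.9, 20.4 and 17.2 CPM in the C57BL/6J controls and 241, 540.5, 206 and 169.7 CPM in the C57BL/6J AngII samples. 129S6/SvEvTac samples held 11.5, 13.5, 10.5 and 9.65 CPM in the 129S6/SvEvTac controls and 48.2, 29.7, 52.4 and 39 CPM in the 129S6/SvEvTac AngII samples. It rose in both strains without overlap, by 4.18 and 1.91 (log2), and differed by 2.27 (SE 0.43, adjusted p = 0.00581). Mmp19, another secreted metalloproteinase, differed by 2.06 (SE 0.29, adjusted p = 0.00122).

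Cysteine proteases of the lysosome were called in the same direction. Of 23 lysosomal genes 8 had a higher effect in C57BL/6J, 13 without C57BL/6J AngII replicate 3, and none a lower effect. The 8 made 34.8% of the list, against 5.34% called higher over all genes tested. Ctss, cathepsin S of macrophages, ranged over 15.1 to 19.1 CPM in C57BL/6J controls and 93.7 to 198 CPM with AngII, against 7.14 to 13.2 and 10.4 to 25 CPM in 129S6/SvEvTac, a difference of 2.43 (SE 0.45, adjusted p = 0.00517). Ctsk, cathepsin K, a collagenase and elastase, rose in both strains and differed by 1.20 (SE 0.24, adjusted p = 0.00723). Lgmn, legumain, which activates cathepsins, ranged over 128 to 139.9 CPM in C57BL/6J controls and 252 to 365 CPM with AngII, against 160.5 to 184 and 196 to 211 CPM in 129S6/SvEvTac, a difference of 1.01 (SE 0.13, adjusted p = 0.000848).

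Collagen genes mostly rose with AngII in both strains. Of 20 collagen genes 19 rose in C57BL/6J and 18 in 129S6/SvEvTac. The effect was higher in C57BL/6J for 5 (Col16a1, Col8a1, Col12a1, Col14a1 and Col5a1) and lower for 1 (Col18a1), with a median of 0.64 (log2). Calls in either direction made 30% of the list, against 9.96% of all genes tested. The count of 5 was 3 without 129S6/SvEvTac AngII replicate 2 or 4 or 129S6/SvEvTac control replicate 1 or 2 or C57BL/6J control replicate 2 or 5, 9 without 129S6/SvEvTac AngII replicate 1 and 13 without C57BL/6J AngII replicate 3. Among other settings it was 3 with the double omission or the adipocyte covariate, 10 with limma voom and 11 with DESeq2, and the count of 1 was 2 with DESeq2 or limma voom.

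Col1a1, a chain of the main fibrillar collagen, stood at 2043, 1567, 2088 and 2008 CPM in the C57BL/6J controls and 17572, 16093, 10479 and 16511 CPM in the C57BL/6J AngII samples. The other strain held 2604, 1835, 1283 and 1657 CPM in the 129S6/SvEvTac controls and 9716, 4614, 6884 and 5766 CPM in the 129S6/SvEvTac AngII samples. Both strains rose without overlap, 7.87-fold and 3.66-fold, and the difference of 1.11 (SE 0.34, adjusted p = 0.0518) missed the threshold; its 95% interval was 0.38 to 1.83. It passed without C57BL/6J AngII replicate 3 (1.28), 129S6/SvEvTac AngII replicate 1 (1.36) or 129S6/SvEvTac control replicate 3 (1.23). Col3a1, which makes the finer fibrils, differed by 0.95 (SE 0.29, adjusted p = 0.0508) and passed without the same 3 libraries, at 1.07, 1.17 and 1.06. Both also passed with DESeq2, limma voom, scaling by library size alone or a filter of 1 CPM in 4 samples, with adjusted p from 0.0112 to 0.0469.

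Col8a1, a short-chain network collagen of injured vessels, differed more. It was at 11.3, 9.88, 16.7 and 18.7 CPM in the C57BL/6J controls and 592, 715, 285 and 609 CPM in the C57BL/6J AngII samples. In 129S6/SvEvTac it was at 21.1, 31.4, 25.5 and 15.9 CPM in the 129S6/SvEvTac controls and 224, 77.7, 98.2 and 202 CPM in the 129S6/SvEvTac AngII samples. The rise was 38.9-fold and 6.41-fold, a difference of 2.60 (SE 0.51, adjusted p = 0.00685). Col12a1 and Col16a1, which lie on the surface of fibrils, differed by 2.25 (SE 0.48, adjusted p = 0.0101) and 1.30 (SE 0.24, adjusted p = 0.00556).

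Cthrc1, a secreted protein of activated adventitial fibroblasts, stood at 0.704, 0.863, 1.46 and 1.07 CPM in the C57BL/6J controls and 223, 142, 57.1 and 244 CPM in the C57BL/6J AngII samples. Its 129S6/SvEvTac levels were 2.44, 4.06, 1.1 and 1.29 CPM in the 129S6/SvEvTac controls and 44.8, 9.64, 13.1 and 43.5 CPM in the 129S6/SvEvTac AngII samples. Replicate 3 was again the low value with AngII in C57BL/6J, and the difference was 3.71 (SE 0.82, adjusted p = 0.0126). Spp1, osteopontin, a phosphoprotein of macrophages and injured smooth muscle, ranged over 0.342 to 1.32 CPM in C57BL/6J controls and 95.9 to 853 CPM with AngII, against 0.61 to 0.884 and 1.69 to 10.02 CPM in 129S6/SvEvTac, a difference of 5.61 (SE 1.03, adjusted p = 0.00501). Here replicate 3 was the highest of its group, at 853 CPM. Thbs2, thrombospondin 2, and Lum, the collagen-binding proteoglycan lumican, differed by 1.18 (SE 0.22, adjusted p = 0.00596) and 1.60 (SE 0.35, adjusted p = 0.0121).

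For other matrix genes both strains rose and no difference was called. Postn, periostin, which links collagen fibrils, ranged over 1691 to 1821 CPM in C57BL/6J controls and 4733 to 6712 CPM with AngII, against 1534 to 1718 and 4496 to 6956 CPM in 129S6/SvEvTac. It rose by 1.68 and 1.83 (log2), and the 95% interval of the difference was -0.54 to 0.24 (adjusted p = 0.667). Eln, elastin, rose by 1.80 and 2.16, with an interval of -1.19 to 0.47 (adjusted p = 0.62).

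**Figure D4:**
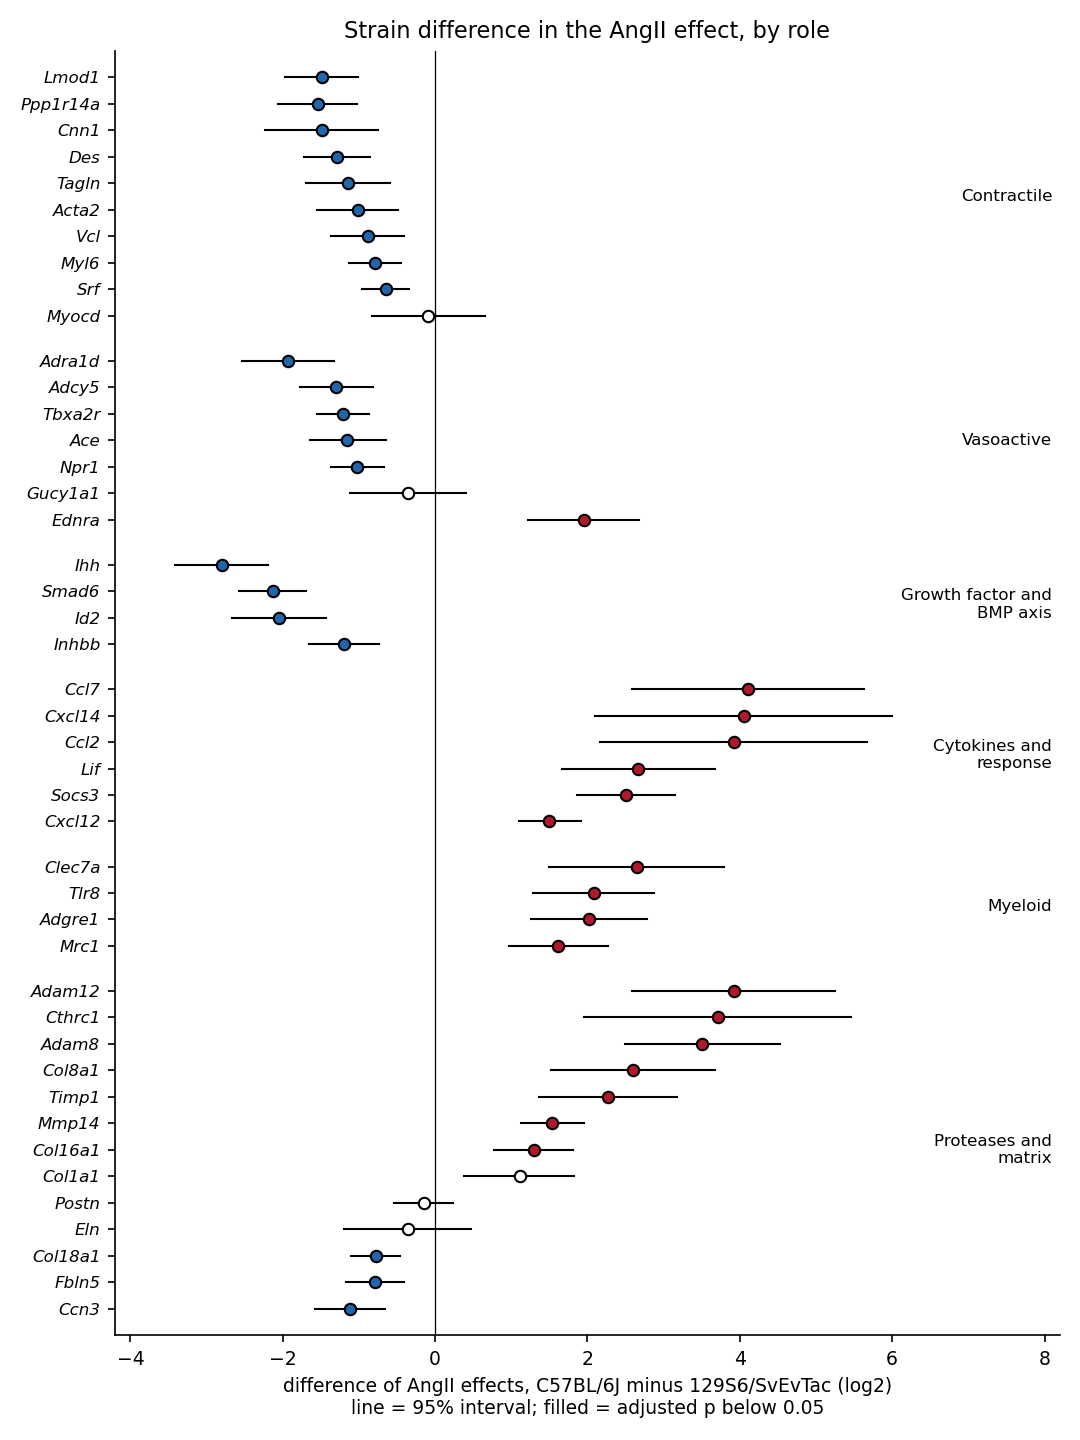
Difference of AngII effects, C57BL/6J minus 129S6/SvEvTac (x axis, log2; point, estimate; line, 95% interval), for genes grouped by role. Filled points passed an adjusted p of 0.05, red above 0 and blue below, and Myocd, Gucy1a1, Col1a1, Postn and Eln did not.

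A smaller set rose with AngII in 129S6/SvEvTac while C57BL/6J showed no called change. Angptl7, a secreted angiopoietin-like protein (chr4:148495183-148500460, minus strand), stood at 14.6, 16, 12.3 and 16.7 CPM in the 129S6/SvEvTac controls and 84, 69.7, 99.3 and 57.5 CPM in the 129S6/SvEvTac AngII samples. In C57BL/6J it stood at 27.9, 29, 22.9 and 24.8 CPM in the C57BL/6J controls and 19.2, 15.3, 32.3 and 22.4 CPM in the C57BL/6J AngII samples. The 129S6/SvEvTac rise was 5.2-fold without overlap, and the difference was -2.61 (SE 0.29, adjusted p = 0.000409).

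Aplp1, an amyloid precursor-like membrane protein, had little spread in any group. It was at 14.9, 14.3, 15.7 and 16.3 CPM in the 129S6/SvEvTac controls and 35.3, 32.7, 37.6 and 35 CPM in the 129S6/SvEvTac AngII samples. In C57BL/6J it was at 38.1, 34.7, 39.4 and 36.4 CPM in the C57BL/6J controls and 38.5, 38.2, 39.4 and 40.1 CPM in the C57BL/6J AngII samples. With AngII the 129S6/SvEvTac samples reached the range of the C57BL/6J samples or lay just under it, and the difference was -1.13 (SE 0.09, adjusted p = 5.38e-05).

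Ccn3, a matricellular protein of smooth muscle and endothelium, was at 1222, 1302, 1399 and 1393 CPM in the 129S6/SvEvTac controls and 3215, 4017, 3802 and 3220 CPM in the 129S6/SvEvTac AngII samples. In C57BL/6J, where the groups overlapped, it was at 1059, 1082, 1156 and 1004 CPM in the C57BL/6J controls and 893, 1261, 1721 and 1433 CPM in the C57BL/6J AngII samples. Its difference was -1.12 (SE 0.21, adjusted p = 0.00628). Col18a1, the basement membrane collagen that yields endostatin, and Fbln5, fibulin 5, which assembles elastic fibres, rose 2.04-fold and 1.99-fold in 129S6/SvEvTac and differed by -0.78 (SE 0.15, adjusted p = 0.00677) and -0.79 (SE 0.18, adjusted p = 0.0142).

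Sod3, the extracellular superoxide dismutase, rose 1.7-fold in 129S6/SvEvTac and differed by -0.81 (SE 0.15, adjusted p = 0.00571). Igfbp7, a secreted binding protein of endothelium, rose 1.87-fold there and differed by -0.86 (SE 0.15, adjusted p = 0.00425). Chst3, a sulphotransferase that modifies chondroitin, differed by -1.02 (SE 0.15, adjusted p = 0.00197). Pdgfb, the endothelial growth factor for mural cells, ranged over 28.8 to 36.7 CPM in 129S6/SvEvTac controls and 56.1 to 68 CPM with AngII, against 33.3 to 40.1 and 40.02 to 42.8 CPM in C57BL/6J, a difference of -0.77 (SE 0.13, adjusted p = 0.00365).

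Growth factors outside that set went the other way, with 9 of 28 higher in C57BL/6J (5 without C57BL/6J control replicate 2) and 2 lower (Pdgfb and Igfbp7; 4 without C57BL/6J AngII replicate 3, 4 with DESeq2 and 5 with limma voom). Growth factor calls in either direction made 39.3% of the list, against 9.96% of all genes tested. Hgf, hepatocyte growth factor, stood at 0.804, 1.23, 1.04 and 1.13 CPM in the C57BL/6J controls and 6.72, 7.3, 8.99 and 6.25 CPM in the C57BL/6J AngII samples. For 129S6/SvEvTac the values were 2.89, 1.86, 1.92 and 2.48 CPM in the 129S6/SvEvTac controls and 3.92, 3.89, 2.72 and 3.48 CPM in the 129S6/SvEvTac AngII samples, a difference of 2.19 (SE 0.28, adjusted p = 0.000848). Fgf7, a fibroblast growth factor for epithelia, differed by 1.28 (SE 0.23, adjusted p = 0.00481).

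Igfbp3, a carrier of insulin-like growth factors, ranged over 2.1 to 3.45 CPM in C57BL/6J controls and 12.1 to 36.8 CPM with AngII, against 9.18 to 35.1 and 3.1 to 16 CPM in 129S6/SvEvTac. Its 129S6/SvEvTac controls spread widely and overlapped the C57BL/6J AngII samples, and the difference was 3.76 (SE 0.71, adjusted p = 0.00581). Gfra1, the receptor for glial cell line-derived neurotrophic factor, rose 11.2-fold in C57BL/6J and differed by 3.71 (SE 0.42, adjusted p = 0.000429).

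Regulators of cell state were among the same calls. Runx1, a transcription factor of blood and mesenchymal cells, stood at 5.31, 3.47, 4.15 and 5.27 CPM in the C57BL/6J controls and 36.8, 42, 29.4 and 37.1 CPM in the C57BL/6J AngII samples. The values in 129S6/SvEvTac were 4.66, 6.74, 5.66 and 4.7 CPM in the 129S6/SvEvTac controls and 10.6, 5.6, 7.44 and 11.5 CPM in the 129S6/SvEvTac AngII samples. It rose 7.98-fold and 1.62-fold, with a difference of 2.30 (SE 0.30, adjusted p = 0.000936). Tnfrsf11b, osteoprotegerin, the decoy receptor that blocks RANKL, ranged over 24.9 to 27.9 CPM in C57BL/6J controls and 118 to 293 CPM with AngII, against 57.9 to 90.6 and 61.4 to 99.98 CPM in 129S6/SvEvTac, a difference of 2.61 (SE 0.32, adjusted p = 0.00078). Klf4, a repressor of contractile genes, and Myc, a driver of growth, differed by 0.88 (SE 0.18, adjusted p = 0.00833) and 2.37 (SE 0.39, adjusted p = 0.00289).

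Has1, a hyaluronan synthase, ranged over 0.385 to 1.38 CPM in C57BL/6J controls and 20.3 to 36.3 CPM with AngII, against 0.0887 to 0.79 and 0.656 to 1.92 CPM in 129S6/SvEvTac, with no sample outside the C57BL/6J AngII group above 2 CPM, and its difference was 3.74 (SE 0.72, adjusted p = 0.00647). Slc7a2, a cationic amino acid transporter that supplies arginine, ranged over 23.7 to 34.4 CPM in C57BL/6J controls and 83.8 to 118 CPM with AngII, against 26.9 to 34.7 and 24.7 to 29.9 CPM in 129S6/SvEvTac, a difference of 1.93 (SE 0.18, adjusted p = 0.000116).

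Cell cycle genes rose in both strains, 28 of 28 in C57BL/6J and 21 in 129S6/SvEvTac. The effect was called higher in C57BL/6J for 9 and lower for 2 (Mcm6 and Bub1b), with a median of 1.62 (log2). Calls in either direction made 39.3% of the list, against 9.96% of all genes tested. The count of 9 was 5 without 129S6/SvEvTac AngII replicate 1 or 129S6/SvEvTac control replicate 3, 16 without 129S6/SvEvTac AngII replicate 2 and 20 without C57BL/6J AngII replicate 3. It was 2 with the double omission and 19 with DESeq2. The count of 2 was 1 in 12 omissions, all except those of 129S6/SvEvTac AngII replicate 4, 129S6/SvEvTac control replicate 2 and C57BL/6J AngII replicates 2 and 3, and 1 with the double omission, the adipocyte covariate, limma voom, the muscle covariate or no filter. Mki67, the proliferation antigen, rose by 4.80 and 3.18, and its difference of 1.62 (SE 0.56, adjusted p = 0.0819) passed without C57BL/6J AngII replicate 3 (1.89) or 129S6/SvEvTac AngII replicate 2 (2.01) or with DESeq2 (1.63, adjusted p = 0.0231).

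Rrm2, the ribonucleotide reductase subunit that supplies nucleotides for DNA synthesis, stood at 2.03, 2.44, 2.04 and 1.99 CPM in the C57BL/6J controls and 26.2, 42.9, 13.9 and 15.3 CPM in the C57BL/6J AngII samples. 129S6/SvEvTac samples held 1.94, 1.88, 2.7 and 2.88 CPM in the 129S6/SvEvTac controls and 7.22, 9.64, 6.39 and 7.31 CPM in the 129S6/SvEvTac AngII samples, and the difference was 1.83 (SE 0.42, adjusted p = 0.0146). Mcm5, a subunit of the replicative helicase, and Aurka, a mitotic kinase, differed by 1.54 (SE 0.34, adjusted p = 0.0123) and 2.74 (SE 0.66, adjusted p = 0.019).

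Mcm6, a subunit of the same helicase ring as Mcm5, differed the other way. It stood at 80.5, 72.6, 83.5 and 77.4 CPM in the C57BL/6J controls and 96, 124, 109 and 97 CPM in the C57BL/6J AngII samples. The other strain held 3.75, 3.18, 2.55 and 3.35 CPM in the 129S6/SvEvTac controls and 8.17, 14.6, 10.6 and 9.85 CPM in the 129S6/SvEvTac AngII samples. In controls the level was 78.5 ± 4.67 CPM in C57BL/6J and 3.21 ± 0.499 CPM in 129S6/SvEvTac (SD, n = 4), and no sample of either strain reached the range of the other. The rise was 1.36-fold in C57BL/6J and 3.37-fold in 129S6/SvEvTac, a difference of -1.31 (SE 0.22, adjusted p = 0.00301). That difference compares folds from these unlike control levels, and how reads were assigned to Mcm6 was not tested. Bub1b, the other gene called lower, stood at 0, 0.1505, 0 and 0 CPM in the 129S6/SvEvTac controls.

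**Figure D5:**
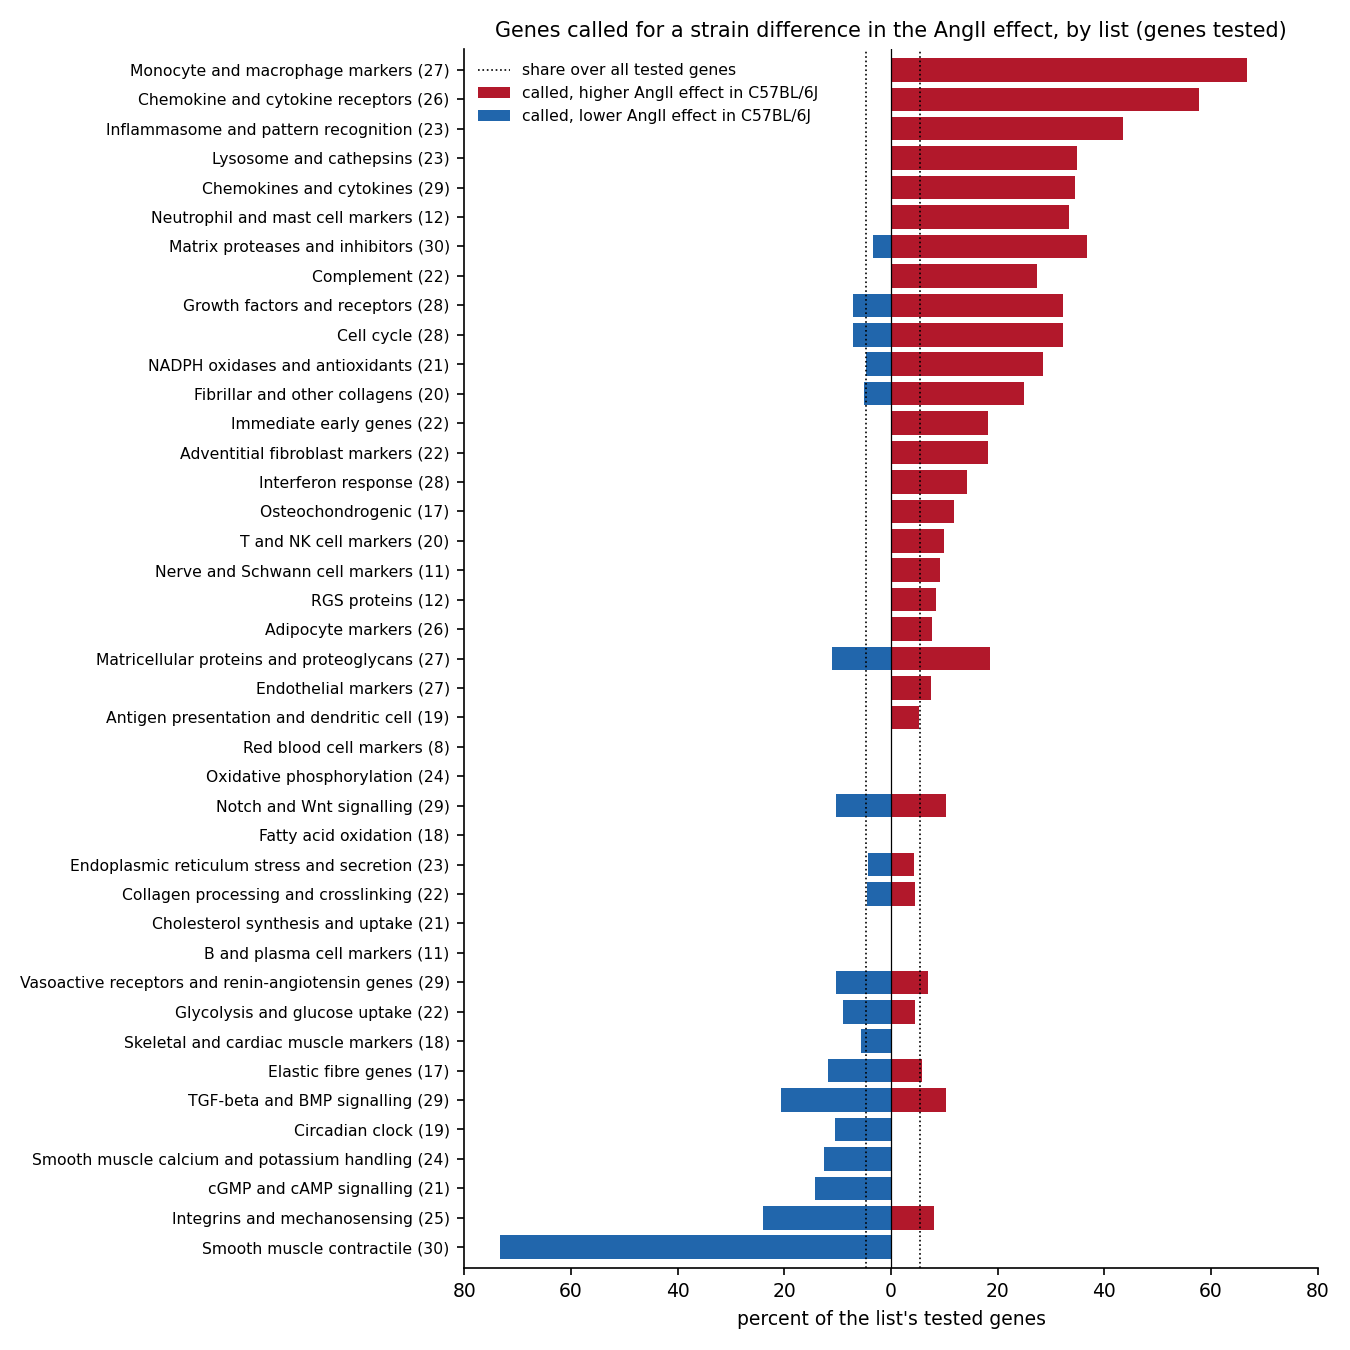
Share of each list's tested genes (x axis, percent; number tested in brackets) called for a higher (red, right) or lower (blue, left) AngII effect in C57BL/6J, ordered by the gap between the 2 shares. Dotted lines mark the shares over all tested genes, 5.34% and 4.62%; the contractile list reached 22 of 30 lower and the macrophage list 18 of 27 higher.

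Several other lists held few or no calls. Among 24 oxidative phosphorylation genes, 18 fatty acid oxidation genes, 21 cholesterol genes, 11 B cell markers and 8 red blood cell markers, edgeR called no difference. At an unadjusted p under 0.05 there were 4 cholesterol genes and 1 fatty acid oxidation gene, and DESeq2 and limma voom each called 2 cholesterol genes and none of the others. Of 26 adipocyte markers 2 were called higher despite a median difference of 2.28 (log2), and the count was 10 without C57BL/6J AngII replicate 3, 1 without 129S6/SvEvTac control replicate 3 and 0 in 12 other omissions, all except those of C57BL/6J AngII replicate 2 and 129S6/SvEvTac AngII replicate 5. It was 0 with no filter, 1 with the double omission, the adipocyte covariate or the muscle covariate and 5 with DESeq2. Their summed level was 1300 to 1953 CPM in C57BL/6J controls, 1427 to 16975 with AngII, 1352 to 3648 in 129S6/SvEvTac controls and 2394 to 5942 with AngII. Within C57BL/6J 23 of the 26 adipocyte markers rose and 1 fell, and in 129S6/SvEvTac 1 rose. Adipocyte markers called for a higher difference made 7.69% of their list, against 5.34% over all genes tested. Endothelial markers held 2 calls of 27 (Kdr and Vcam1) and a median of -0.35, with 1 or 0 calls in 14 omissions, all except those of 129S6/SvEvTac AngII replicate 2 and C57BL/6J AngII replicate 3, and 0 with the double omission or no filter. Their 2 calls made 7.41% of the list, against 5.34% called higher over all genes tested. Adventitial fibroblast markers held a larger share, 4 of 22 called higher (Has1, Fap, Has2 and Pdgfra; 18.2%, against 5.34% over all genes). That count was 1 with the adipocyte covariate, 1 without 129S6/SvEvTac control replicate 2 and 2 without 129S6/SvEvTac AngII replicate 4 or 129S6/SvEvTac control replicate 1 or C57BL/6J AngII replicate 5 or C57BL/6J control replicate 1.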

How the data were processed

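RNA was sequenced from whole descending thoracic aorta of 16 samples, 4 in each of the 4 groups of strain and treatment. Per the labels' protocols, reads were aligned to GRCm38 with HISAT2 and quantified with StringTie against a Gencode annotation. The deposited gene table holds estimated counts that the authors made from this quantification, as whole numbers with no normalization; the step from StringTie's output to counts and the strand setting were not given in the sources used here. A role is not stated for R 3.6.2 and DESeq2 1.26.0, which the submitters' processing notes list. Of 52636 gene IDs 52489 were matched to a symbol, and the other 147 held 0.033% to 0.0431% of the counts of a library. A lower depth gives a less precise value, and the table ran from 42116120 to 121573945 counts a library.

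Here the counts were filtered with edgeR's filterByExpr (minimum count 10), scaled by TMM and fitted with edgeR 4.0.16 (R 4.3.3), robust quasi-likelihood, 1 mean per group over all 16 samples. The difference of AngII effects and each strain's effect were tested with glmQLFTest, Benjamini-Hochberg adjusted over 17125 genes, at 0.05. CPM values are TMM-scaled. Values of a list per library were compared by a two-sided exact permutation test. In simulated data for the difference of AngII effects on 16719 genes, 68 of 200 changed genes were recovered and 2 unchanged genes called, at 4.48%, 35.8% and 62.1% for 1.5-, 2- and 4-fold changes. Each sample was counted once. Samples of a group differed by far more than sampling noise (chi-square over its degrees of freedom 37.58 or more), which does not show that they came from different animals.

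Genes were named by a rule: the 12 largest differences in each direction at 10 CPM or more, up to 4 called genes in each of 41 lists, a panel of 44 genes, and 5 genes for each pattern of the 2 strains. It gave 192 genes, of which 169 were called and 128 of these kept in all 16 omissions; the text describes those calls by preference. Srf lies outside the rule. A few of the genes it named are not reported here. The lists, the panel and the rule were chosen with earlier results of these data known. Promoter windows came from RefSeq (GRCm38.p6). Alternatives were scaling by RLE or by library size alone, no filter, 1 CPM in 4 samples, DESeq2 1.42.0, limma 3.58.1 voom with sample weights, the replicate block, adipocyte or muscle marker level as a covariate, leaving out 2 libraries together and leaving out each library.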

Additional observations from a re-analysis of the deposited data

Results flagged for a closer look

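Across 432 groups of 4 checked, 21 values lay far from the rest of their group by Dixon's 95% limit, which chance alone gives in about 1 in 20 groups. In C57BL/6J controls these were Vcl (802.7 CPM), Col1a1 (1567 CPM), Col3a1 (2290 CPM), Col18a1 (2174 CPM) and Rrm2 (2.438 CPM), all in replicate 2. Replicate 5 of the same group stood apart for Gucy1a1 (261 CPM), Tnfrsf11b (24.89 CPM) and Pcdhgc3 (119.7 CPM), and replicate 1 for Aurka (0.2178 CPM). In 129S6/SvEvTac controls Ccl2 stood apart in replicate 1 (1.47 CPM), Il6 (0.05644 CPM) and Adam12 (3.123 CPM) in replicate 2, and Pcdhgc3 in replicate 3 (13.99 CPM). In 129S6/SvEvTac AngII samples it was Des in replicate 1 (200.9 CPM), Mob2 in replicate 2 (56.01 CPM), Ppp1r14a in replicate 4 (262.3 CPM), and Il6 (0.0524 CPM) and Cry2 (69.14 CPM) in replicate 5.

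For marker levels (mean log2 CPM), neutrophil and mast cell markers stood apart in 129S6/SvEvTac control replicate 4 at -1.22, endothelial markers in C57BL/6J control replicate 5 at 5.12 and adventitial fibroblast markers in C57BL/6J AngII replicate 5 at 6.96.

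The AngII effect differed between strains for 1706 genes by the test of the difference itself. Among the genes named, called effects of opposite sign gave differences of -2.13 for Smad6, -2.05 for Id2, -2.80 for Ihh, -1.28 for Mob2, -1.15 for Mmp17 and -0.63 for Itgb5 (log2).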

How the results depend on the processing

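The 1706 differences became 1049 with C57BL/6J AngII replicate 1 and 129S6/SvEvTac AngII replicate 5 left out, 1128 with the adipocyte level as a covariate, 2663 with DESeq2 and 2670 with limma voom, and ran from 1039 to 2990 when each library was left out. No call turned its direction in any alternative, and the cause of the shifts was not tested. Limma voom called 3324 genes within 129S6/SvEvTac, against 2087. Of the receptor genes 9 were called with the 2 libraries left out and 7 with the adipocyte level, 7 to 17 over the omissions, and 11 macrophage markers with the adipocyte level. The Myocd estimate of -0.09 (-0.34 to 0.07 over the omissions) became 0.01 with the 2 libraries left out, 0.21 with the adipocyte level and 0.04, 0.07, 0.05, 0.06 and 0.03 without 129S6/SvEvTac AngII replicate 1, 129S6/SvEvTac control replicate 2 and C57BL/6J AngII replicates 1 and 5 and control replicate 5. Spp1 lost its call under limma voom (adjusted p = 0.0574), and Aurka (0.0541) and Nr1d1 (0.0593) with the 2 libraries left out. A set of 97 genes, a part of those named, was followed through every setting. All 97 kept their side of the threshold under RLE scaling and the muscle covariate. Bub1b, outside these 97, lost its call with the muscle covariate.

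Samples with the same replicate number were not clearly more alike. The correlation of their deviations ran from -0.06 to 0.15 (median 0.02, 19 pairs), against -0.22 to 0.26 for the others. Such weak correlations cannot exclude pairing by number. With the replicate block 1590 genes were called, 1352 of them shared. The block moved the higher count from 5 to 9 for collagens, 1 to 7 for antigen presentation, 2 to 1 for endothelial markers and 1 to 2 for elastic fibre genes, and the lower count from 3 to 5 for calcium and potassium handling. The single calls of muscle markers (lower) and of endoplasmic reticulum genes (1 in each direction) became 0. Among the same 97 genes, Col1a1 (adjusted p = 0.0291) and Col3a1 (0.0269) gained a call with the block and mt-Nd4 (0.135) and Pcdhgc3 (0.0504) lost theirs. No other of these 97 changed sides. Outside them, the interferon response genes Ddx58 and Irf7, named below, lost their calls with the block.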

Other observations

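Of 12 neutrophil and mast cell markers tested, 4 were called higher in C57BL/6J, the mast cell genes Kit, Tpsb2, Cma1 and Mcpt4. Cpa3 and Ms4a2, the other mast cell genes of the list, were not among the calls, and 3 of the 12 estimates were below 0. Cma1 in C57BL/6J AngII replicate 3, at 1.11 CPM, lay within its controls (0.704 to 3.79 CPM). The 4 calls made 33.3% of the list, against 5.34% called higher over all genes tested. The count was 1 without 129S6/SvEvTac AngII replicate 4 or C57BL/6J AngII replicate 1 or C57BL/6J control replicate 2 or 3 or 5 and 2 without 129S6/SvEvTac AngII replicate 2 or 129S6/SvEvTac control replicate 1 or 2 or 3 or C57BL/6J AngII replicate 5. It was 0 with the double omission or the adipocyte covariate and 2 with no filter. Interferon response genes called higher made 14.3% of their list, against 5.34% over all genes tested. Of the 28 tested 4 were called higher (Bst2, Oasl2, Ddx58 and Irf7), with a median difference of 1.20 (log2). That count was 1 without 129S6/SvEvTac AngII replicate 4 or C57BL/6J AngII replicate 1 or 5 or C57BL/6J control replicate 2, 2 without 129S6/SvEvTac control replicate 3 or C57BL/6J control replicate 5, 10 without C57BL/6J AngII replicate 2 and 13 without C57BL/6J AngII replicate 3. Among other settings it was 1 with the double omission or the adipocyte covariate, 7 with scaling by library size alone, 9 with DESeq2 and 12 with limma voom.

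Notch and Wnt genes were called in both directions, 3 of 29 each, the higher count being 5 without C57BL/6J AngII replicate 2 and 5 with DESeq2 or limma voom. Both directions together made 20.7% of the list, against 9.96% of all genes tested. Heyl, a repressor that Notch signalling induces in mural cells, stood at 491, 433, 516 and 472 CPM in the C57BL/6J controls and 137, 110.2, 164 and 164 CPM in the C57BL/6J AngII samples. In 129S6/SvEvTac it stood at 381, 393, 349 and 288 CPM in the 129S6/SvEvTac controls and 272, 272, 326 and 347 CPM in the 129S6/SvEvTac AngII samples. The C57BL/6J AngII samples lay below all others, and the difference was -1.52 (log2, SE 0.19, adjusted p = 0.000795). Dkk2, a secreted Wnt antagonist, rose 7.36-fold in C57BL/6J and differed by 3.29 (SE 0.68, adjusted p = 0.00886), and Wnt11, a ligand of the non-canonical pathway, by 2.11 (SE 0.48, adjusted p = 0.0143). Of 19 circadian clock genes 2 had a lower effect in C57BL/6J (10.5%, against 4.62% over all genes tested), and 1 with the double omission. Nr1d1, the repressor REV-ERB alpha, ranged over 287 to 479 CPM in C57BL/6J controls and 151 to 229.6 CPM with AngII, against 388 to 523 and 363 to 387 CPM in 129S6/SvEvTac, a difference of -0.89 (SE 0.22, adjusted p = 0.0217). Cry2, a cryptochrome, fell in both strains and differed by -0.61 (SE 0.13, adjusted p = 0.0126). The labels give no time of collection.

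Some called genes had values that split within a group. The mitochondrial gene mt-Nd4 stood at 2988, 2203, 2718 and 2604 CPM in the C57BL/6J controls and 3490, 1652, 2420 and 2405 CPM in the C57BL/6J AngII samples. In 129S6/SvEvTac it stood at 77.8, 72.4, 85.5 and 61.4 CPM in the 129S6/SvEvTac controls and 83.4, 2466, 92.9 and 3908 CPM in the 129S6/SvEvTac AngII samples, so that AngII replicates 2 and 5 lay in or above the range of C57BL/6J and the other 6 samples far below it. The difference of -4.54 (SE 1.20, adjusted p = 0.0282) was lost in 8 omissions, those of 129S6/SvEvTac AngII replicates 2 and 5, 129S6/SvEvTac control replicates 1, 2 and 4, C57BL/6J AngII replicates 2 and 5 and C57BL/6J control replicate 1, with adjusted p from 0.0515 to 0.0617, and also with the double omission (0.0775), no filter (0.0765) and limma voom (0.311). Pcdhgc3, a clustered protocadherin that shares exons with its neighbours, was at 14, 22.6, 12.4 and 119.7 CPM in the C57BL/6J controls and 12.5, 11.7, 12.5 and 14.6 CPM in the C57BL/6J AngII samples. In 129S6/SvEvTac it was at 12.6, 12.6, 14 and 12.8 CPM in the 129S6/SvEvTac controls and 12.2, 162, 137 and 134 CPM in the 129S6/SvEvTac AngII samples. A single C57BL/6J control and 3 of the 4 129S6/SvEvTac AngII samples exceeded 100 CPM. Its difference of -4.81 (SE 1.02, adjusted p = 0.0101) had an adjusted p of 0.146 with limma voom.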
